A study of Strongylocentrotus purpuratus with 10 samples.

Results

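Solitary 20 h-only elements are candidate transcriptional regulatory elements (TREs) of the purple sea urchin *Strongylocentrotus purpuratus* that were listed in embryos aged 20 h, were absent from the list of embryos aged 12 h, and had no other listed element nearby. They were chosen by the measured peak calls of both stages. Peaks of the same list less than 500 bp apart were first merged into regions. A 20 h region was kept when no other region of either list lay within 10 kb, measured edge to edge, and when its scaffold carried at least 5 merged regions over both lists. This rule gave 3493 elements of 39851 merged 20 h regions (8.77%), on 1493 scaffolds.

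The embryos were whole embryos reared at 15 degrees Celsius, described for both ages as hatching blastulae, and no treatment is named for either age. Their nuclei were profiled by PRO-seq, a run-on assay that locates transcribing RNA polymerase from the growing end of the RNA it carries. There were 4 libraries of the 12 h age, labelled as 3 biological replicates, and 6 of the 20 h age, labelled as 4. The PRO-seq methods of the study state fewer biological replicates. Replicates were combined, and each stage has 1 list of peaks from dREG, a program that recognises TREs by the shape of nascent transcription. No value below therefore has an error across biological replicates, and stage, read depth (greater at 20 h) and embryo batch (from wild populations) cannot be told apart.

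Promoters and enhancers both start transcription in opposite directions, and the short RNAs made there are what dREG recognises. Enhancers can lie far from the gene they act on, and a gene of the developmental network is often served by several of them that act at different stages or in different territories. Between 12 h and 20 h the blastula hatches and the main embryonic territories become established. Whether an element is a promoter or an enhancer is not stated by dREG, and an annotation of the genome build of the lists (3.1) was not used here, so most elements are given by position alone.

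Several steps of the rule decided how many elements were left. Of all merged 20 h regions, 51.8% had no overlapping 12 h region, which is 20646 regions. Of these, 8812 had no 12 h region within 10 kb. Another 20 h region within 10 kb removed 4595 of the 8812, which left 4217. The limit on the scaffold removed 724 more. Solitary elements were thus 18.0% of the 19459 20 h-only regions on scaffolds with at least 5 regions. These counts follow from the rule and are a description.

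The mirrored rule, applied to the 12 h list, gave 2940 solitary 12 h-only elements on 1443 scaffolds. The 20 h count was 1.19 times the 12 h count, a smaller ratio than the 1.72 for all stage-specific regions on the same scaffolds or the 1.25 for all merged regions. A solitary element made up 25.9% of the stage-specific regions at 12 h. The ratio of solitary elements depended on which peaks were kept. With both lists cut at a 1 − probability of at most 0.01 or 0.001, it was 1.26 and 1.27. With only as many 20 h peaks as the 12 h list holds, those of highest probability, 2841 solitary 20 h-only and 3760 solitary 12 h-only elements were found, a ratio of 0.756. That setting left the 12 h list whole, so list size and stringency changed together. At a limit of 20 kb the ratio was 1.03, with 1313 and 1273 elements.

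The limit of 10 kb cut through a continuous range of distances. Just inside it, a single-peak element of 260 bp on Scaffold1104 (70881 to 71140, probability 0.99052) and a pair on Scaffold54 (1070611 to 1070860 and 1080871 to 1081210, probabilities 0.97840 and 0.99684) lay 10.01 kb from the nearest region. The members of the pair were each other's nearest region. Just outside it, at exactly 10 kb, were regions of 820 bp on Scaffold263 (552151 to 552970), 240 bp on Scaffold326 (534351 to 534590) and 460 bp on Scaffold880 (102871 to 103330). In all, 388 elements lay between 10 and 11 kb from their nearest region, and 474 of the 20 h-only regions that were left out lay between 9 and 10 kb.

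The 12 h list was empty over long stretches around these elements. Of the 3493, 2613 (74.8%) lay between 12 h regions on both sides, in a closed 12 h peak-free stretch. The other stretches ran past the last listed 12 h region of the scaffold, on one side for 877 elements and on both sides for 3, so their length is unknown. Closed stretches had a median length of 69.65 kb (interquartile range 46.2 to 104.2 kb), and the 95% interval of the median, from order statistics, was 68.0 to 71.2 kb. The rule itself requires at least 20 kb plus the width of the element. The shortest stretch was 21.2 kb and the longest 371 kb, 726 elements (27.8%) lay in stretches over 100 kb, and 96 in stretches over 200 kb. Longer stretches offer more room, so these lengths are weighted toward long stretches. Solitary 12 h-only elements had a median 20 h peak-free stretch of 65.6 kb (63.7 to 67.1 kb) over 2022 elements in closed stretches. Of these, 21.4% lay in stretches over 100 kb. The 20 h list is the denser, with 39851 merged regions against 31840 at 12 h, so the medians do not compare the elements alone. The intervals cover counting error only and treat elements as independent.

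**Figure D1:**
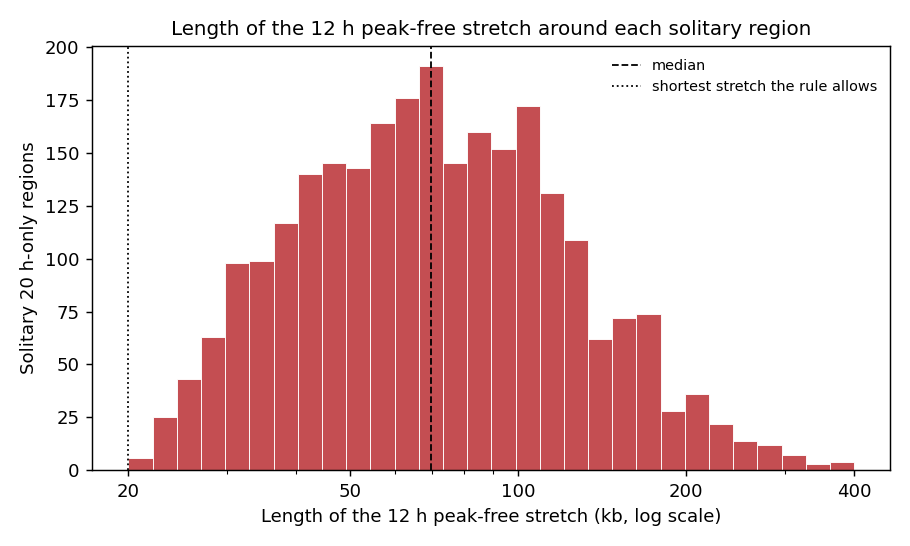
Length of the closed 12 h peak-free stretch (kb, log scale) around each of 2613 solitary 20 h-only elements, as a histogram of the number of elements. The dashed line is the median, 69.65 kb, and the dotted line the shortest length the rule allows, 20 kb before the width of the element. Most elements lie between 40 and 160 kb.

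The longest closed stretch was on Scaffold983, from 79181 to 450190. It held 9 20 h-only regions, of which 4 were solitary. The solitary elements stood at 171201 to 171920 (720 bp, 1 − probability 5.70e-14), 276011 to 276360 (350 bp, probability 0.98220), 369161 to 369730 (570 bp, probability 0.97179) and 388421 to 389180 (760 bp, probability 0.99806). The first of them was close to the maximum of the scale, whereas the third stood toward the threshold of the list. The second, with 75.4 kb to its nearest region, stood close to the centre of the stretch.

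Elements far from everything were often at the edge of the listed part of a scaffold. The most distant from any region was Scaffold1150, 35301 to 35600 (300 bp, probability 0.99021), 219.6 kb from the nearest listed region, with no region on its other side. Scaffold1067, 384611 to 384960 (350 bp, 1 − probability 3.03e-06), followed at 190.4 kb, and Scaffold715, 354951 to 355230 (280 bp, probability 0.98208), at 189.8 kb, both with an open side as well. Among elements in closed stretches, the most distant were Scaffold57, 1019471 to 1019750 (280 bp, probability 0.96346), 119 kb from any region, and Scaffold471, 157931 to 158150 (220 bp, probability 1), 110.7 kb away. The order in closed stretches was looked up after the values had been seen. The median distance to the nearest region of either list was 16.65 kb, to the nearest 20 h region 18.7 kb and to the nearest 12 h region 22.1 kb.

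The position of the elements within the 12 h peak-free stretch was close to an even spread. Position was scaled so that 0 is the outermost place the 10 kb rule allows and 0.5 the centre of the stretch. The median was 0.248 (95% interval 0.238 to 0.259), and an even spread has a median of 0.25. In 5 bins of equal width from the edge to the centre lay 514, 527, 515, 531 and 526 elements, which is 19.7 to 20.3% each. The elements stood nearer the left end of their stretch in 1290 cases and nearer the right end in 1322. Of the 2613 elements, 1338 (51.2%) were over 20 kb from the 12 h regions on both sides, and 214 were over 50 kb. Solitary 12 h-only elements had 19.0 to 21.1% per bin and a median of 0.253. On this scale neither set was gathered at the border or in the middle of the stretches. The scale allows for the bounding regions of the other list, but not for regions of the same list inside the stretch. Regions that crowd together are left out by the rule, so this describes solitary elements alone.

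**Figure D2:**
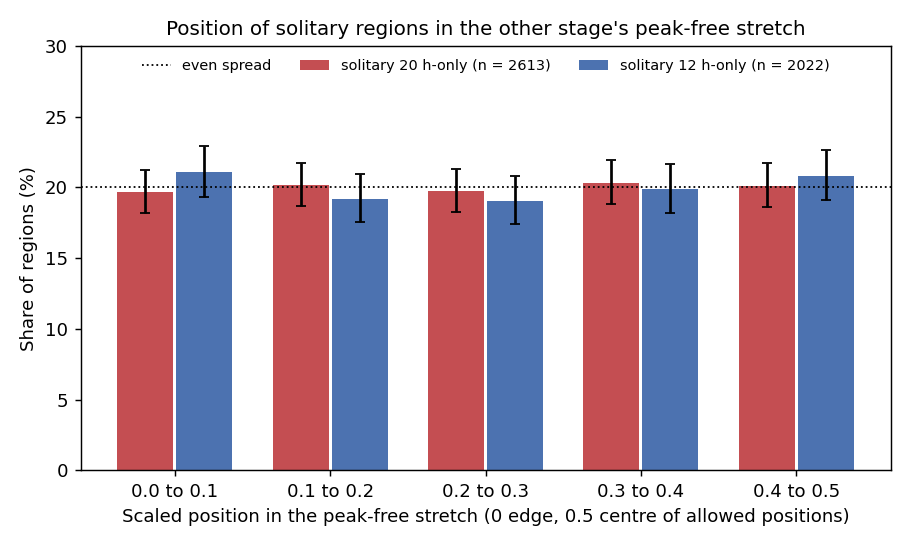
Share of solitary elements (%) in 5 bins of scaled position within the peak-free stretch of the other stage, from 0 at the edge of the allowed positions to 0.5 at the centre. Bars are solitary 20 h-only (n = 2613) and solitary 12 h-only (n = 2022) elements, error bars 95% Wilson intervals, and the dotted line an even spread, which lies within the error bars of all bars.

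The share of stretches that held an element rose with their length. Among 10022 closed 12 h peak-free stretches over 20 kb on the scaffolds used, 2146 (21.4%) held at least 1 solitary element. The share was 8.26% of 5317 stretches of 20 to 40 kb, 28.2% of 3446 stretches of 40 to 80 kb, 56.5% of 1108 stretches of 80 to 160 kb and 72.8% of 151 longer ones. Per Mb of the stretches less 10 kb at each end, the density was 9.65, 9.11, 9.16 and 7.63 solitary elements in the same order. The rule also bars the 10 kb around other 20 h regions, which was not taken off. The share of stretches thus rose by a large factor, while density in this measure ran from 9.65 to 7.63 per Mb. For the mirrored rule the densities were 8.23, 8.39, 7.88 and 6.45 per Mb.

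**Figure D3:**
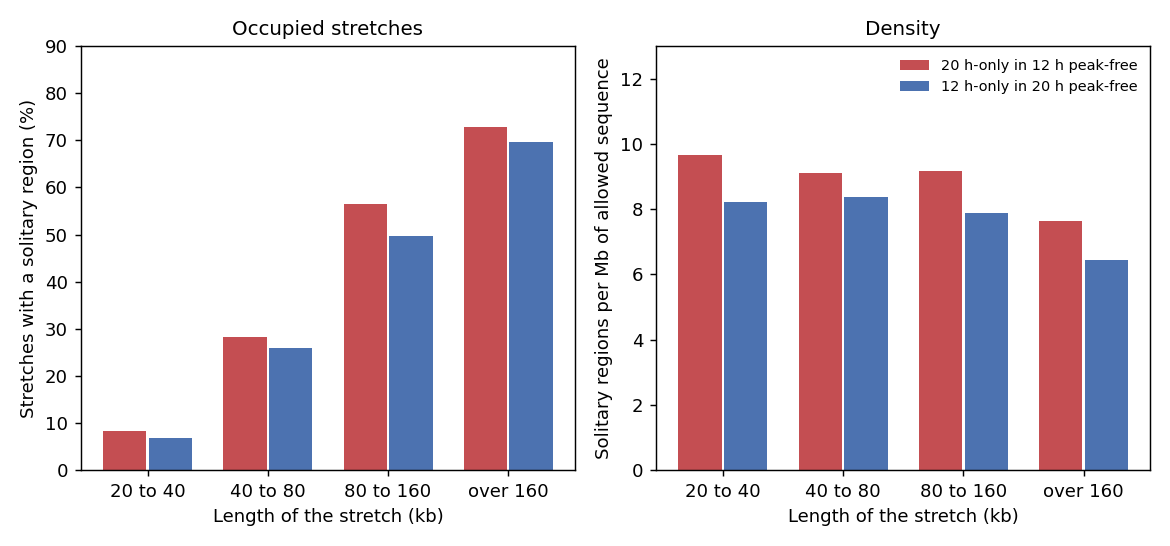
Left, share of peak-free stretches (%) that hold a solitary element, by length of the stretch (kb). Right, solitary elements per Mb of the stretches less 10 kb at each end. Red bars are 20 h-only elements in 12 h peak-free stretches and blue bars 12 h-only elements in 20 h peak-free stretches. There is 1 pooled list per stage, so there are no error bars. The occupied share rises from 8.26 to 72.8% for 20 h-only elements, and density runs from 9.65 to 7.63 per Mb.

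Most 20 h-only regions of these stretches were not solitary. The closed stretches over 20 kb held 12135 20 h-only regions, of which 2613 (21.5%) were solitary. The solitary share rose from 10.1% in stretches of 20 to 40 kb to 37.9% in those over 160 kb, as the rule makes likely. In the mirrored comparison the shares were 15.7 and 70.0%. Density of all 20 h-only regions over the whole length of the stretches fell from 28.9 to 18.2 per Mb between the same classes, and that of 12 h-only regions from 15.4 to 8.30 per Mb. Of the 2146 stretches with a solitary element, 1756 held 1, 321 held 2, 62 held 3, 6 held 4 and 1 held 5. The solitary element was the sole 20 h-only region of its stretch in 1067 cases (49.7%). Other, non-solitary 20 h-only regions were present in 874 stretches (40.7%), and 205 (9.55%) held several solitary elements and nothing else.

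By the stages at which they were listed, the regions nearest the solitary elements had about the makeup of the lists as a whole. The nearest region was listed at both stages for 1261 elements (36.1%, 95% Wilson interval 34.5 to 37.7%), 20 h-only for 1409 (40.3%, 38.7 to 42.0%) and 12 h-only for 823 (23.6%, 22.2 to 25%). Among all 49193 regions of the scaffolds used, these kinds made up 37.4, 39.6 and 23.0%. In 673 cases (19.3%) the nearest region was itself a solitary 20 h-only element, and in 736 (21.1%) another 20 h-only region. Of all 19459 20 h-only regions on these scaffolds, 3493 were solitary and 15966 were not. Solitary elements were thus more frequent among the nearest regions than in the list, as the rule makes likely. The region nearest a solitary element lies over 10 kb from it with nothing between. On that side it already meets the limit, which a region drawn from the whole list need not do. How much of the difference this makes up was not tested. The 12 h regions that bounded occupied stretches overlapped a 20 h region in 61.3% of 4292 cases (59.9 to 62.8%). The background was 60.2% for all 12 h regions and 61.1% for those bounding any 12 h peak-free stretch over 20 kb. A share this near the background is not a result about the solitary elements. The bounding regions of stretches without any 20 h-only region were shared in 58.3% of cases (57.2 to 59.3%), and those of stretches with 20 h-only regions but no solitary one in 64.3% (63.2 to 65.4%).

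Solitary elements were spread over many scaffolds. Of the 1493 scaffolds, 642 carried 1 element, 390 carried 2, 186 carried 3 and 275 carried 4 or more, while 949 scaffolds with at least 5 regions carried none. The highest numbers were on Scaffold5 (16 elements among 118 20 h regions), Scaffold16 (14 among 65) and Scaffold3 (14 among 177). On Scaffold16 the elements made up 21.5% of 20 h regions and on Scaffold3 7.91%. These scaffolds carried 5, 6 and 2 solitary 12 h-only elements. Solitary elements were 12.1% of 20 h regions on scaffolds with 5 to fewer than 20 regions, 9.23% with 20 to fewer than 50, 8.34% with 50 to fewer than 100 and 7.73% with 100 or more. The corresponding shares of 12 h regions were 13.4, 10.2, 7.96 and 8.22%. Next to a scaffold's end the rule could check a single side, and the part of scaffold ends in these shares was not tested.

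Solitary elements were narrow and simple. Their median width was 350 bp (interquartile range 280 to 460 bp, mean 416 ± 236, SD over elements). A single dREG peak made up 3128 elements (89.6%, 88.5 to 90.5%), 307 (8.79%) held 2 peaks and 58 (1.66%) held 3 or more. Solitary 12 h-only elements were of similar size, with a median of 360 bp and 91.2% of single peaks. Other 20 h-only regions on the same scaffolds had a median of 380 bp and 85.9% of single peaks. Regions at 20 h that overlapped a 12 h region had a median of 590 bp and 54.1% of single peaks. A wider region is more likely to overlap a region of the other list, and the part of this in the difference was not tested.

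The closest counterpart were 3833 20 h regions that also stood alone but were listed at both stages, with no further region of either list within 10 kb other than the overlapping one. Their median width was 530 bp (interquartile range 350 to 890 bp), 56.0% (54.5 to 57.6%) were single peaks and 18.4% held 3 or more. Among single-peak regions alone the medians were nearer, at 330 bp for solitary 20 h-only elements and 370 bp for those of both stages. Within solitary 20 h-only elements the median rose from 330 bp with 1 peak to 800 bp with 2 and 1150 bp with 3. Of the 439 gaps between peaks inside these elements, 263 (59.9%) were exactly 20 bp, the smallest gap among them.

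The dREG probability of the elements covered the whole range of the list. It was taken as the highest among the peaks of a region, and it ranks regions within the 20 h list only. A region of several peaks thus has more chances of a high value. The median of 1 − probability was 0.000899 (interquartile range 1.03e-09 to 0.0129), against 0.000422 for other 20 h-only regions, 1.96e-06 for solitary regions of both stages and 2.79e-05 for all 20 h regions. Solitary 12 h-only elements had a median of 0.00138 in their own list. Elements with 1 − probability above 0.01 numbered 1016 (29.1%, 27.6 to 30.6%), while 12.3% (11.3 to 13.4%) of solitary regions of both stages were in that class. Among single-peak regions alone the contrast was smaller, with 996 of 3128 solitary elements and 443 of 2148 solitary regions of both stages in that class. The part of peak number in the difference of the medians was not tested. At a probability of exactly 1 stood 703 elements (20.1%, 18.8 to 21.5%), where the background was 20.3% of all 20 h regions and 21.7% of solitary regions of both stages. The share at the top of the scale was thus near that of the whole list and is not a result about the solitary elements. Between 1 − probability of 0 and 1e-12 lay 62 elements (1.78%) and between 1e-12 and 1e-06 lay 339 (9.71%), against 5.11 and 21.2% of solitary regions of both stages and 1.57 and 11.8% of other 20 h-only regions. Solitary elements were in this nearer to the other 20 h-only regions than to solitary regions of both stages.

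Width followed probability, except at the maximum of the scale. From the class of 1 − probability above 0 and at most 1e-12 to that of 0.01 to 0.05, the median width of solitary 20 h-only elements fell from 605 to 510, 400, 340 and 290 bp. The elements at a probability of exactly 1 had a median of 320 bp. Solitary 12 h-only elements had the same pattern, from 670 to 305 bp with 310 bp at exactly 1. Solitary regions of both stages fell from 885 to 290 bp, but stood at 740 bp at exactly 1. Solitary elements of a probability of exactly 1 also held fewer peaks. Single peaks were 84.6% of the former and 37.6% of the latter, and among single peaks the medians were 290 and 325 bp. In each of the other classes, the medians of single-peak solitary elements at 20 h and at both stages differed by at most 20 bp.

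**Figure D4:**
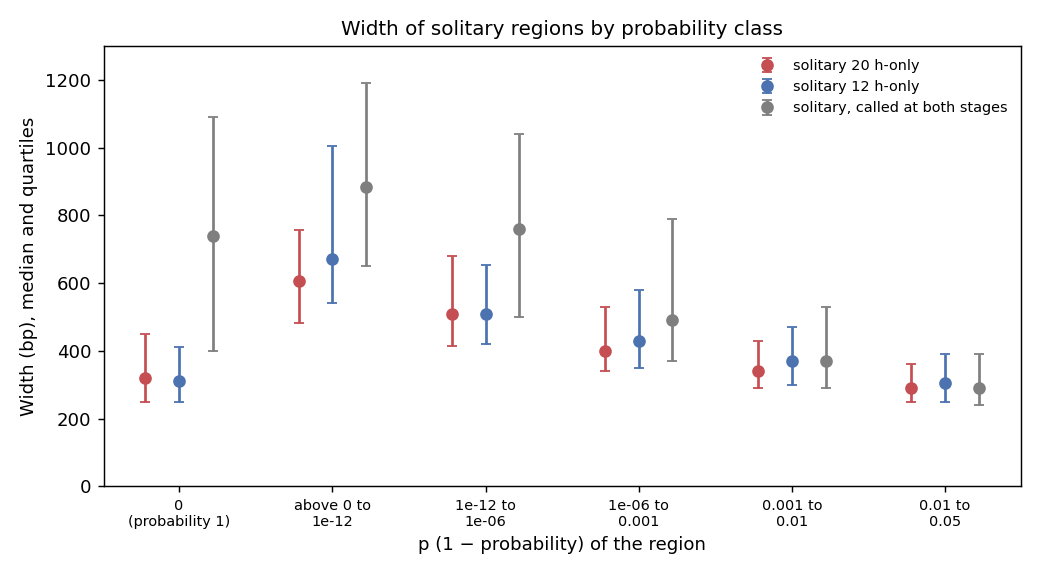
Width (bp) of solitary elements by class of 1 − dREG probability, from a probability of exactly 1 on the left to the weakest class on the right. Points are medians and bars the interquartile range over elements for solitary 20 h-only (red), solitary 12 h-only (blue) and solitary regions listed at both stages (grey). At a probability of exactly 1 the medians are 320, 310 and 740 bp, and in the weakest class 290, 305 and 290 bp.

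Width varied little with the surroundings, and probability followed no single order. Median widths were 370, 350, 350 and 350 bp in stretches of 20 to 40, 40 to 80, 80 to 160 and over 160 kb, and the share at a probability of exactly 1 was 19.3, 19.3, 21.0 and 25.6%. The last share rests on 211 elements and its interval, 20.2 to 31.9%, overlaps those of the other classes. The median 1 − probability was 0.0008, 0.00118, 0.000897 and 0.000276 in the same classes, lowest in the longest stretches. For elements 10 to 15, 15 to 20, 20 to 40 and over 40 kb from their nearest region, median widths were 360, 350, 340 and 350 bp. Their median 1 − probability was 0.000635, 0.000904, 0.00157 and 0.000704, highest in the class of 20 to 40 kb and with similar values at both ends. The 880 elements in open stretches had a median width of 350 bp and 19.4% at a probability of exactly 1.

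The widest and the most complex elements were the same at the top of both orders. Scaffold1432, 107791 to 111030, was 3240 bp wide, held 6 peaks, had a probability of 1, and was the sole 20 h-only region of an 86.7 kb stretch. Scaffold1026, 61861 to 64970, was 3110 bp wide and also held 6 peaks at a probability of 1, in an open stretch. Scaffold566, 462401 to 464840, was 2440 bp wide with 4 peaks and a 1 − probability of 9.04e-06, and Scaffold1603, 202031 to 204150, was 2120 bp wide with 5 peaks at a probability of 1. With Scaffold857, 479791 to 482050 (2260 bp, 4 peaks, 84.5 kb stretch), Scaffold1432 and Scaffold1026 were also the widest of the elements at a probability of 1.

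At the lowest 1 − probability above 0, which was 4.00e-15, stood Scaffold728, 11041 to 12110 (1070 bp), Scaffold119, 835371 to 836160 (790 bp), and Scaffold235, 144271 to 145030 (760 bp), each of 2 peaks. At the other end of the scale, Scaffold4, 747861 to 748120 (260 bp, probability 0.95008), Scaffold651, 101761 to 102050 (290 bp, 0.95010), and Scaffold276, 190141 to 190380 (240 bp, 0.95031), stood at the threshold of the list. All of these weakest elements were single peaks. Elements in a stretch of median length, 69.65 kb, were Scaffold266, 31231 to 31530 (300 bp, probability 0.97492), Scaffold65, 620011 to 620350 (340 bp, 0.99911), and Scaffold72, 1138431 to 1138690 (260 bp, probability 1). Stretches of the same length thus held elements from near the threshold to the maximum of the scale.

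The narrowest elements, looked up after the values had been seen, lay at scaffold starts. Scaffold383, 221 to 280, was 60 bp wide and Scaffold973, 371 to 460, was 90 bp wide, both at a probability of 1. Of the 10 elements under 150 bp, 6 started within the first kb of their scaffold, and 45 of all elements did so. The part of scaffold ends in these calls was not tested.

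A few elements fell in genomic fragments that had been chosen for regulatory study. The study lists cis-regulatory modules (CRMs), fragments around genes of developmental regulators whose ability to drive a reporter was examined, and names each by its gene. Of the 211 merged 20 h regions that overlapped such a fragment, 134 (63.5%, 56.8 to 69.7%) were 20 h-only and 3 (1.42%, 0.485 to 4.10%) were solitary. Over all 20 h regions, 51.8% were 20 h-only and 8.77% solitary. The fragments belong to 37 genes, so the 211 regions are clustered, while the intervals treat them as independent. Regions within 10 kb of each other are not solitary by the rule. Whether an element acts on the gene that names the fragment was not tested.

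The element in a fragment named for Six12 was at Scaffold143, 760451 to 760850 (400 bp, 1 − probability 5.16e-07). Six12 encodes a homeobox transcription factor. The element was the sole 20 h-only region of a 33.2 kb stretch, 14.6 kb from the 12 h region on its left and 18.2 kb from that on its right. The element in a fragment of Dach, which encodes a nuclear cofactor of the Dachshund family, was at Scaffold1640, 110661 to 110930 (270 bp, probability 0.99529). Its 70.5 kb stretch held 1 other 20 h-only region. The element in a fragment of IrxA, an Iroquois homeobox gene, was at Scaffold688, 215111 to 215360 (250 bp, probability 1), in a 60.7 kb stretch with 5 other 20 h-only regions. All these elements were single peaks over 14 kb from any other region.

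An element between the fragments of FoxN23, a forkhead transcription factor gene, was at Scaffold592, 140281 to 140640 (360 bp, 1 − probability 1.48e-05). It lay in a 62.9 kb stretch with 6 other 20 h-only regions, and its nearest region was 12.0 kb away. This element was looked up after the values had been seen, as were those within 50 kb of CRM fragments. These numbered 17 with the elements above, near the fragments of 15 genes. The further 13 lay 2.28 to 47.8 kb from the nearest fragment and ranged from near the threshold of the list to the maximum. Those near fragments of Dlx (a Distal-less homeobox gene) and Gsc (goosecoid, a homeobox repressor) each held 2 peaks and were close to or at the maximum of the scale. They were Scaffold119, 835371 to 836160 (790 bp, 1 − probability 4.00e-15), and Scaffold468, 407241 to 408020 (780 bp, probability 1). Near fragments of the forkhead genes FoxG and FoxB stood Scaffold3, 2000711 to 2001150 (440 bp, 43.8 kb from the fragment), and Scaffold912, 239301 to 239640 (340 bp, 30.5 kb away), both at a probability of 1, as was the element near Nfe2 (230 bp). Nearer the threshold were those near fragments of Z188 (180 bp, probability 0.97361), Unc41 (250 bp, 0.98602), Fic (500 bp, 0.98673) and Sip1 (490 bp, 0.98951). The others, near fragments of FoxK, Id (a pair of elements) and IrxA, had a 1 − probability between 3.17e-10 and 0.000567.

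**Figure D5:**
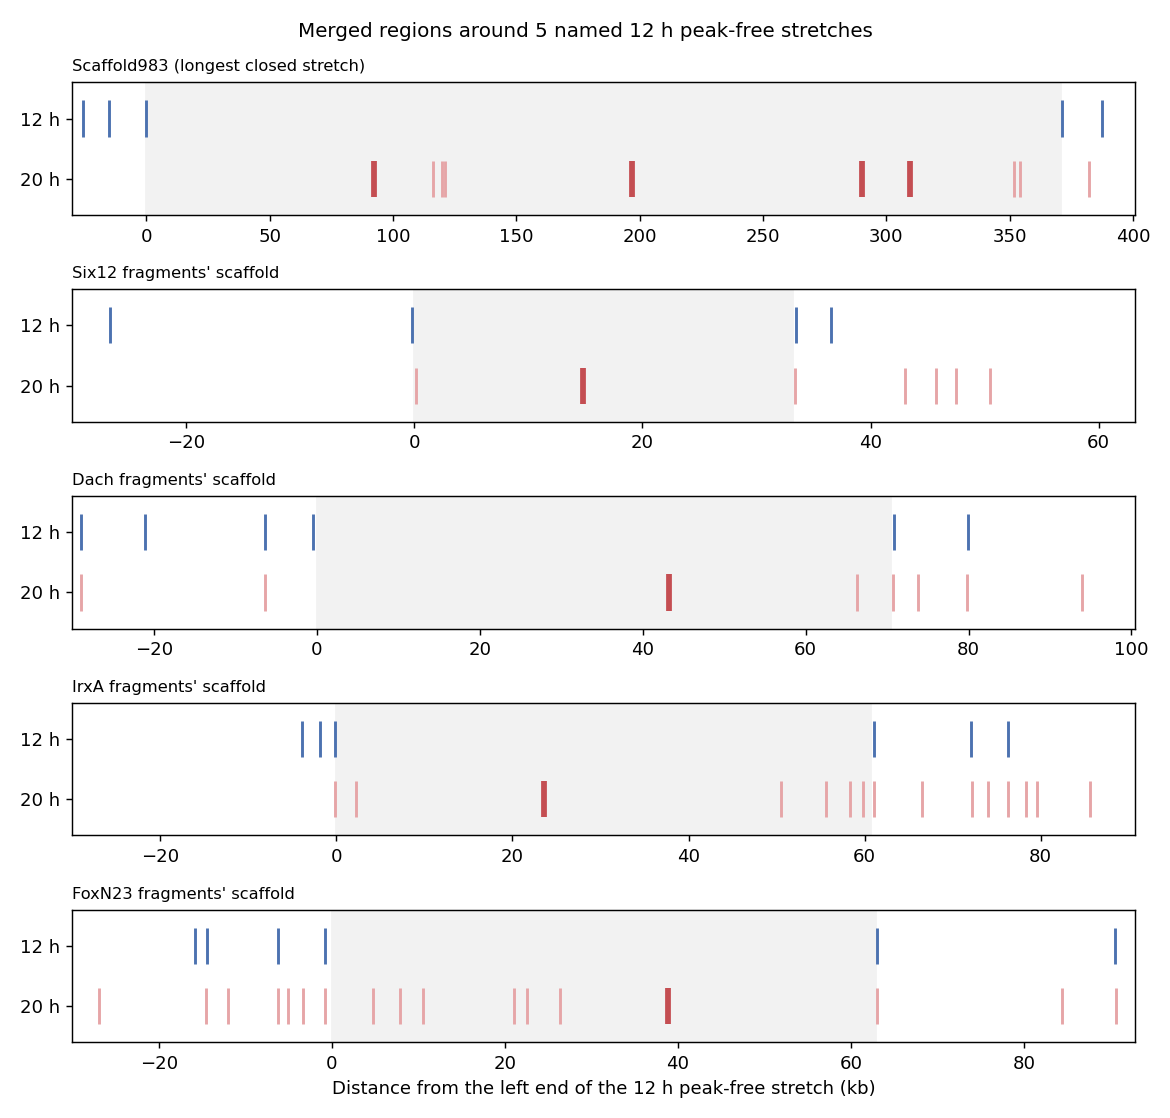
Merged regions at 12 h (blue) and 20 h (red) in and around 5 closed 12 h peak-free stretches (grey), by distance from the left end of the stretch (kb). Thick red marks are solitary 20 h-only elements and light red marks other 20 h regions. Widths are not to scale. The Scaffold983 stretch holds 4 solitary elements, and those on the scaffolds of the Six12, Dach, IrxA and FoxN23 fragments hold 1 each.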

How the data were processed

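Reads were mapped by the authors with the proseq2.0 pipeline (genome version 3.1), replicates were combined and dREG predicted TREs. The deposited value of each peak is a fraction from 0 to 1, its dREG probability, with 1 list per stage. The dREG version and threshold are not given in the sources used here. The lowest listed probability was 0.950. The lists hold no read counts, so the reads behind a single peak are not known here. The methods give the total of mapped reads per stage, which is greater at 20 h. Which libraries entered each pool is not stated.

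Peaks less than 500 bp apart were merged and regions of the lists were compared at an overlap of at least 1 bp. A gap of exactly 10 kb counted as within 10 kb. Positions are given 1-based. No test was made, since each stage has 1 pooled list and elements are not replicates. Shares have 95% Wilson intervals and medians 95% intervals from order statistics, which cover counting error only. CRM positions and names came from the study's list. Named elements are the longest stretch, greatest distance, widest, most peaks, highest and lowest probability, lowest 1 − probability above 0, median stretch, both sides of the limit, and those in CRM fragments (3 each, 4 for the tied longest stretch), and the scaffolds with most elements. The elements and these lists were chosen with earlier results of these data known. The merging and the rule were tested on simulated data. Alternatives are given in the closing section. Python 3.11.15, numpy 2.4.6, pandas 2.3.3, scipy 1.17.1 and matplotlib 3.10.9 were used.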

Additional observations from a re-analysis of the deposited data

How the results depend on the processing

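Each of 6 summaries was recomputed under 11 alternatives. Of the 66 values, 48 stayed within 1.5 times the count or within the 95% interval of the median, and 18 moved. The median scaled position stayed within its interval under all 11, from 0.242 to 0.249. A limit of 5 kb gave 6866 solitary 20 h-only and 5221 solitary 12 h-only elements and a median stretch of 53.8 kb. A limit of 20 kb gave 1313 and 1273 elements and 96.5 kb. Here the limit itself sets the counts and the lengths. With peaks of 1 − probability at most 0.01 in both lists, the median stretch was 74.6 kb, the median width 380 bp and the median 1 − probability 8.72e-06. At most 0.001 gave 84.15 kb, 400 bp and 1.20e-08. The 20 h list reduced to the number of 12 h peaks gave 67.65 kb, 380 bp and 5.15e-06. Without the peaks whose probability was exactly 1, the values were 71.75 kb, 370 bp and 0.00347. These alternatives remove peaks by probability and so shift it by construction, and the cause of the other shifts was not tested. Joining peaks only at 20 bp, merging below 1000 bp, other scaffold minimums and closed stretches alone moved no summary past these bounds. The ratio of 20 h to 12 h solitary elements ran from 0.756 to 1.32 over all alternatives, and was below 1 with the reduced 20 h list alone. No paired analysis was possible because each stage has 1 pooled list. Replicates could not be left out for the same reason. The methods state fewer mapped reads at 12 h than at 20 h, and the part of this in the calls was not tested. Absence from the 12 h list does not show absence of transcription.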
